A study of Mus musculus with 6 samples.

Results

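Oxidative phosphorylation was followed in RNA sequencing of mouse skin during wound healing through 96 of the 17538 protein-coding genes listed in the deposited tables, 83 encoded in the nucleus and 13 on the mitochondrial chromosome. They were chosen by symbol alone, as protein-coding genes of the Nduf, Sdh, Uqcr, Cox4 to Cox8 and Atp5 families and those whose symbol begins with mt-. The rule itself uses no expression value. Assembly factors, Cyc1, Cycs and Ndufab1 fall outside these symbols and are described further on as neighbouring lists. The tissue came from wounds given C-phycocyanin (C-PC), the blue light-harvesting protein of Spirulina, or from untreated wounds, and was sampled early, midway and late in healing. Each of the 6 groups (early control, early C-PC, middle control, middle C-PC, late control and late C-PC) holds 1 library. No strain, age, dose, day or number of animals is given in the labels used here, and the labels name no agent for the untreated groups.

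The respiratory chain lies in the inner mitochondrial membrane. Complex I (NADH dehydrogenase) and complex II (succinate dehydrogenase) pass electrons to ubiquinone, complex III (cytochrome bc1) passes them to cytochrome c, and complex IV (cytochrome c oxidase) passes them to oxygen. Complex V (ATP synthase) makes ATP from the proton gradient that complexes I, III and IV build. Most subunits are nuclear genes, whereas a small core of hydrophobic subunits is made from mitochondrial DNA, and complex II has only nuclear subunits. Several nuclear subunits of complex IV exist as paralogs. Cox6a2, Cox7a1 and Cox8b are the forms of heart and skeletal muscle, and Cox6a1, Cox7a2 and Cox8a are the forms found in most tissues. Skeletal muscle is rich in mitochondria, whereas dermal fibroblasts and keratinocytes hold fewer.

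The nuclear genes comprised 35 of complex I, 4 of complex II, 8 of complex III, 19 of complex IV and 17 of complex V. The mitochondrial genes comprised 7 of complex I, 1 of complex III, 3 of complex IV and 2 of complex V. Ndufa4 and its paralog Ndufa4l2 were counted with complex IV, where the Ndufa4 protein resides. All but 1 of the 96 genes were listed at every stage. The exception was Cox8c, a testis form of subunit 8, which had 3 reads in the early control, 0 in the early C-PC library and no listing at the other stages.

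Stretches upstream of the transcription start are shown for 4 nuclear genes. Cox6a1 and Uqcr11 stand for genes with short motifs typical of housekeeping mitochondrial genes, and Cox7a1 and Cox8b are muscle forms. Each is 250 bases long, ends at the base before the start, and is from RefSeq on GRCm38.p6. Capitals mark CCGGAAG (the core bound by GABPA and other ETS factors), GCGCATGCG (nuclear respiratory factor 1) or CAGCTG (an E-box of the MyoD family), each in either orientation. In Cox6a1 the capitals GCGCATGCGC are 2 overlapping matches, 1 on each strand.
Cox6a1, chr5:115348959-115349208, minus strand: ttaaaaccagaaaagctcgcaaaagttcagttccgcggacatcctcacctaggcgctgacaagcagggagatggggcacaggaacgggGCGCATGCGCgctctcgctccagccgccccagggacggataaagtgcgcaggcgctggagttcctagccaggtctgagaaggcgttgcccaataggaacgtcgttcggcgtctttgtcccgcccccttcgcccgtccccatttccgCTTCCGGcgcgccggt
Uqcr11, chr10:80406822-80407071, minus strand: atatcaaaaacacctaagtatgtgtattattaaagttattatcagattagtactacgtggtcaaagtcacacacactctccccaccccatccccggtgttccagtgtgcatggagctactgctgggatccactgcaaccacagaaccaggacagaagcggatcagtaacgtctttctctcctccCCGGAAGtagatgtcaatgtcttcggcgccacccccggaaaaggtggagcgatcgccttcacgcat
Cox7a1, chr7:30183921-30184170, plus strand: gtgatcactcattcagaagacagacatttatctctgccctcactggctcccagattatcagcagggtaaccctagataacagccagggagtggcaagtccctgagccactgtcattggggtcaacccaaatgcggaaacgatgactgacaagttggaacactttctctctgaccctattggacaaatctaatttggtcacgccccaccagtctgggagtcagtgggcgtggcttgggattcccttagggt
Cox8b, chr7:140900447-140900696, minus strand: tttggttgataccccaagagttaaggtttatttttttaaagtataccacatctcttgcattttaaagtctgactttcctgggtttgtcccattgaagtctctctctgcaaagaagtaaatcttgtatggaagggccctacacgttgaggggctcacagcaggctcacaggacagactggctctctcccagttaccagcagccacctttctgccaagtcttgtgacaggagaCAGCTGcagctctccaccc

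Of the 83 nuclear genes, 67 had an entry in the RefSeq promoter table, with 72 promoters of 300 bases (250 before the start and 50 after it). The letters CCGGAAG were present in 22.2% of these promoters and in 8.86% of all 32851 promoters in the table. Those of nuclear respiratory factor 1, GCGCATGCG, were present in 11.1% against 1.75%. AAGGTCA, the core of estrogen-related receptors, was present in 11.1% against 4.72%, and AAGATGG, bound by YY1, in 15.3% against 6.34%. The E-box letters CAGCTG were in 8.33% of the members' promoters and 16.3% of all, and CAGGTG in 20.8% and 20.2%. The motif of MEF2, a muscle transcription factor, was in 0% of the members' promoters and 3.19% of all. All motifs were searched on both strands, and a match is a description of the letters only.

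Between 15863637 and 18028674 reads fell on genes in each library. The libraries stood apart in tissue content before any member was considered. The summed level of 12 skeletal muscle markers was 11709 CPM (reads scaled to a common total on genes) in the early control, 5762 in the early C-PC library and 8607 in the middle control. It was 132516 in the middle C-PC library, 128513 in the late control and 1976 in the late C-PC library. Although all samples are labelled skin, the 6 keratinocyte markers summed to between 3.94 and 14.8 CPM in 4 libraries, against 2229 in the middle control and 6029 in the late C-PC library. Krt5 and Krt14, the keratins of the basal epidermal layer, were both at 0 in the early control and the middle C-PC library. The 6 hair follicle markers summed to 40074.5 CPM in the late C-PC library and 66.8 in the middle control. In the other 4 libraries they summed to between 0.524 and 1.43 CPM. Fibroblast markers summed to between 50575 and 84911 CPM in both early libraries and the middle control, and to between 2594 and 13860 CPM in the other 3. White adipocyte markers summed to 3853 CPM in the middle C-PC library, 6092 in the late control, 2061 in the late C-PC library and between 344 and 504 in the other 3. In such whole-tissue samples, fewer cells of a type and less RNA per cell cannot be told apart.

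The genes of the chain were most abundant in the late control and the middle C-PC library. Nuclear members summed to 6919 CPM in the early control, 6866 in the early C-PC library, 5815 in the middle control, 20802 in the middle C-PC library, 19478 in the late control and 8540 in the late C-PC library. Mitochondrially encoded members summed to 16777, 16000, 19995, 71052, 51127 and 19656 CPM in the same order. Together the 13 mitochondrial genes took 7.11% of all reads on genes in the middle C-PC library and between 1.60% and 5.11% in the other 5. The same 2 libraries held the most skeletal muscle RNA, and the part of muscle content in these levels was not tested.

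**Figure D1:**
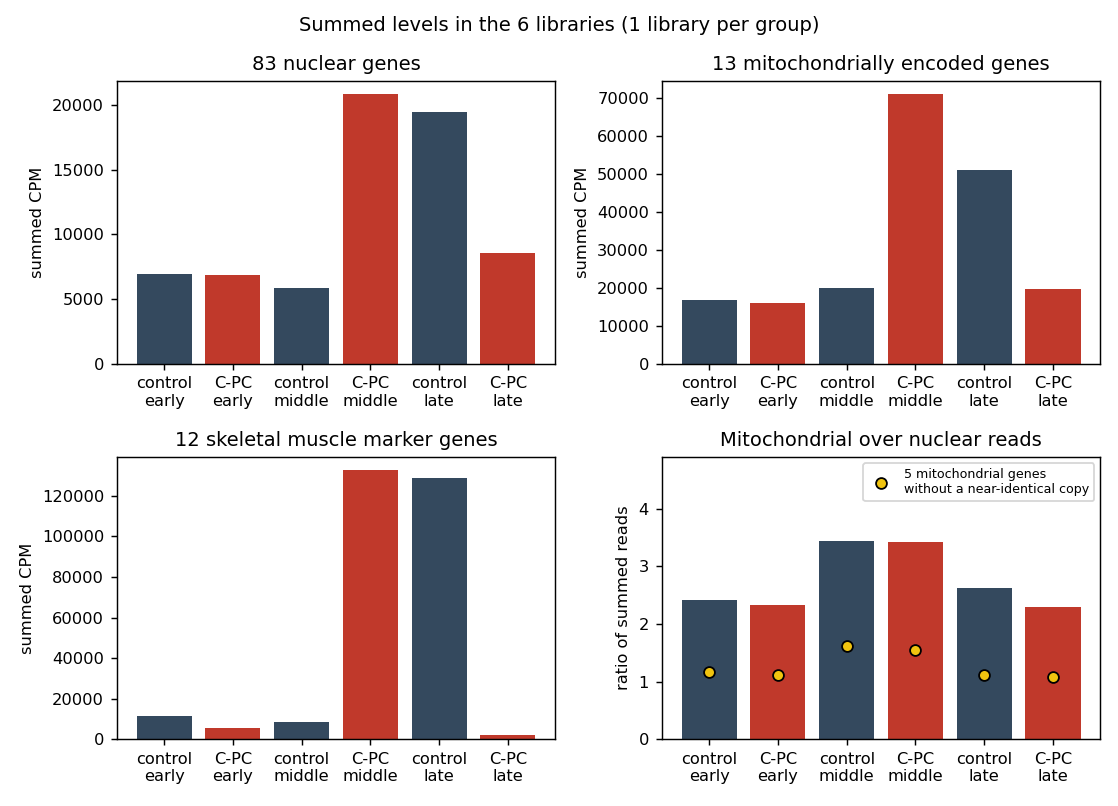
Summed CPM of the 83 nuclear genes, the 13 mitochondrial genes and 12 skeletal muscle markers, and the ratio of mitochondrial to nuclear reads, as bars for each of the 6 libraries (control dark, C-PC red). Bars of the late control and the middle C-PC library stand highest in the first 3 panels, whereas in the fourth both middle libraries stand highest, at 3.44 and 3.42. Yellow points give the ratio from 5 mitochondrial genes without a near-identical nuclear copy.

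The balance of the nuclear and the mitochondrial genome followed another order. Reads of mitochondrial genes over reads of nuclear genes were 2.42 in the early control and 2.33 in the early C-PC library. At the middle stage the ratio was 3.44 in the control and 3.42 with C-PC, and at the late stage 2.62 and 2.30. Both middle libraries were thus above the other 4. The middle C-PC library held far more muscle marker RNA than its control, and the part of muscle content in this ratio was not tested. With the 5 mitochondrial genes that have no near-identical nuclear copy, an alternative chosen after seeing the data, the ratios were 1.17, 1.12, 1.62, 1.54, 1.12 and 1.09 in the order used above, and both middle libraries remained highest. With 1 library a group, no test of this difference between stages was made.

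Per length of transcript (RPKM, CPM divided by the deposited gene length in kilobases), the median nuclear member stood at 39.1 in the early control, 35.7 in the early C-PC library, 30.3 in the middle control, 109.8 in the middle C-PC library, 113.1 in the late control and 45.0 in the late C-PC library. In the middle C-PC library the median RPKM was 89.0 for nuclear genes of complex I, 161 for complex II, 183 for complex III, 146 for complex IV and 107 for complex V. The middle control had 22.8, 41.0, 39.3, 43.2 and 42.3 in the same order. Complex I thus had the lowest median per length of the 5 complexes in both libraries.

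At the early stage few members differed between the C-PC library and its control. A gene was called apart when the ratio of deposited values (plus 2) was at least 2-fold and the exact 95% interval of its reads excluded equality, which covers counting error only. Of 94 members that reached 10 reads in either library, 1 was higher and 3 were lower with C-PC. Over all 16589 genes compared, 2.92% were higher and 6.85% lower. The median log2 ratio was 0.03 for nuclear members and -0.18 for mitochondrial members, beside 0.00418 for all genes.

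Atp5g1, 1 of the genes for the membrane ring subunit c of ATP synthase, was the member higher at the early stage. It had 30.7 CPM in the control and 69.1 with C-PC, a log2 ratio of 1.19 (95% interval 1.05 to 1.34). The other genes for subunit c, Atp5g2 and Atp5g3, had log2 ratios of -0.01 and 0.11. The 3 lower members were Cox6a2, Cox7a1 and mt-Nd4l. Cox6a2 had 48.0 CPM in the control and 18.7 with C-PC, a log2 ratio of -1.33 (-1.53 to -1.15). Cox7a1 had 3.66 and 1.54 CPM, a log2 ratio of -1.16 (-1.94 to -0.55). Skeletal muscle markers were also lower in the early C-PC library, with 7 of 12 past the same threshold, and their part in these values was not tested.

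In complex I the early ratios of nuclear genes ran from -0.24 for Ndufs7, a subunit with an iron-sulfur cluster, to 0.27 for Ndufa12, an accessory subunit. The interval of Ndufa12 included equality (-0.03 to 0.57). Gm15920, a pseudogene that matches a part of Ndufa12 at 99.5% identity, had 424 and 412 reads, control first. Ndufa12 itself had 177 and 196, so its reads are uncertain. Sdha, the flavoprotein of complex II, was the lowest of its complex at -0.19 and Sdhc, a membrane anchor, the highest at 0.14. In complex III, Uqcrc1 (a core subunit) was lowest at -0.13 and Uqcrb highest at 0.32. In complex V, Atp5l was lowest at -0.16. Outside the 4 members named above, no nuclear gene passed the threshold in either direction at this stage.

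At the middle stage the chain was higher in the C-PC library as a whole. Of 82 nuclear members compared, 76 were at least 2-fold higher with C-PC and 0 were lower. Over all 17076 genes compared, 23.6% were higher and 28.1% lower. Of the 13 mitochondrial members, 12 were higher. The median log2 ratio was 2.31 for nuclear members and 2.13 for mitochondrial members, beside -0.13 for all genes. With scaling to total reads the median of all genes was -0.66, and the members' medians were 1.77 and 1.68. The share of all genes called higher was then 2686 of 17076, with 6851 lower, against 4036 and 4800 with the authors' scaling.

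All 35 nuclear genes of complex I were higher in the middle C-PC library, with a median log2 ratio of 2.47. Ndufs1, the largest subunit, which carries iron-sulfur clusters, had 72.2 CPM in the control and 315 with C-PC, a log2 ratio of 2.67 (2.58 to 2.76). Ndufv1, which binds NADH, had 59.1 and 258 CPM. The highest ratio was that of Ndufs7, at 3.22 (3.11 to 3.34), with 44.2 and 282.6 CPM. Ndufb2, a small accessory subunit, had the lowest ratio, 1.01 (0.65 to 1.42), with 5.99 and 8.38 CPM. It was no longer called with scaling to total reads or DESeq2 size factors, which left 34 of 35 genes higher.

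All 4 genes of complex II were higher, with log2 ratios between 2.17 and 2.72. Sdha had 148 CPM in the middle control and 670.0 with C-PC, and Sdhb, the iron-sulfur subunit, had 103 and 357. All 8 nuclear genes of complex III were higher as well, with a median log2 ratio of 2.68. Uqcr11, a small subunit, was highest at 3.21 (3.05 to 3.40), and Uqcrh, the hinge protein, was lowest at 2.11 (2.02 to 2.21). Uqcrfs1, the Rieske iron-sulfur protein, had 98.6 and 477 CPM. Uqcrc1 had 169 and 778 CPM, and Uqcrc2, its partner core subunit, had 95.9 and 351 CPM.

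All 17 nuclear genes of complex V were higher, and their median log2 ratio was 2.24. Atp5b, the catalytic beta subunit, had 612 CPM in the control and 2451 with C-PC, a log2 ratio of 2.55 (2.51 to 2.58). Atp5a1, the alpha subunit, had 604 and 2003 CPM. Atp5g1 was highest at 3.49 (3.37 to 3.61), and its paralog Atp5g2 was lowest at 1.21. With scaling to total reads, 16 of the 17 were higher. Atp5g1, Atp5g2 and Atp5g3 encode the same mature ring subunit, so their transcripts are alternative sources of 1 protein.

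Complex IV was the most divided. Of its 18 nuclear genes compared, 12 were higher in the middle C-PC library, and the ratios ran from -1.0 for Cox6b2 to 5.21 for Cox7a1. The 6 that did not pass were Cox6a1, Cox8a, Cox7a2l, Cox4i2, Cox6b2 and Ndufa4l2. Cox4i1, the main form of subunit 4, had 220 CPM in the control and 542 with C-PC, a log2 ratio of 1.84. Cox5a, which pairs with subunit 4, had 51.9 and 279 CPM.

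At the late stage the order of the 2 libraries was the reverse. Of 82 nuclear members compared, 73 were at least 2-fold lower in the C-PC library and 0 were higher, where over all 17073 genes 23.1% were lower and 26.3% higher. Of the 13 mitochondrial members, 11 were lower. The median log2 ratio was -1.71 for nuclear members and -1.80 for mitochondrial members, beside 0.15 for all genes. With scaling to total reads the median of all genes was 0.69, the members' medians were -1.16 and -1.25, and 51 nuclear and 8 mitochondrial members were lower. With that scaling, and with a pseudocount of 0.5, 1 nuclear member, Cox6b2, was called higher. With scaling to total reads, over all genes 6899 were higher and 2654 lower, against 4484 and 3951.

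By complex, 34 of 35 nuclear genes of complex I were lower in the late C-PC library, with a median of -1.81. Ndufb2 was the exception at -0.88 (-1.27 to -0.52), and Ndufs7 was again at the end of the range, at -2.51 (-2.61 to -2.42). All 4 genes of complex II were lower, led by Sdhd, a membrane anchor, at -2.70 (-2.81 to -2.60), with 234 CPM in the control and 52.5 with C-PC. All 8 nuclear genes of complex III were lower, from -2.26 for Uqcrfs1 to -1.23 for Uqcrb. In complex V, 15 of 17 were lower and Atp5g1 was lowest at -2.59. Atp5g2 at -0.90 and Atp5h at -0.94 did not reach 2-fold. Scaling to total reads left 26 genes of complex I lower, 4 of complex III and 8 of complex V.

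Of the 18 nuclear genes of complex IV, 12 were lower in the late C-PC library. Those that did not pass were the same 6 genes as at the middle stage. The lowest ratios of all nuclear members belonged to Cox6a2, Cox7a1 and Cox8b. Outside these 3, the nuclear genes of the complex lay between -2.07 for Cox5a and 0.95 for Cox6b2.

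**Figure D2:**
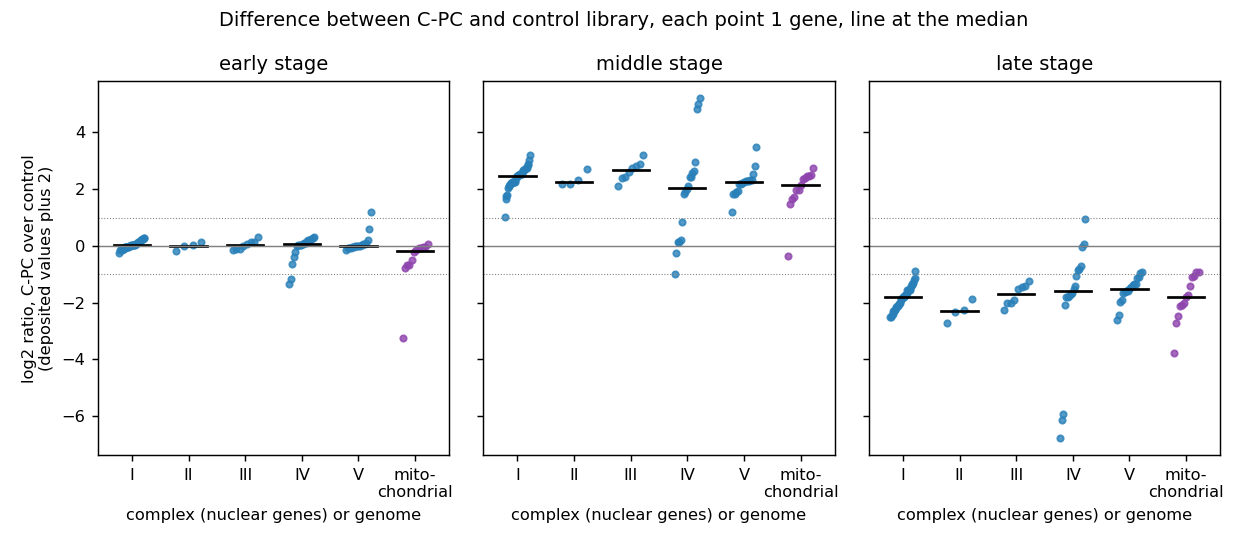
Log2 ratio of C-PC over control at each stage, on the scale of deposited values plus 2, for each gene compared (points), by complex for nuclear genes (blue) and for mitochondrial genes (purple), with the median as a black line and dotted lines at 2-fold. Medians lie near 0 at the early stage, between 2.05 and 2.68 at the middle stage and between -2.30 and -1.53 at the late stage, and complex IV has the widest range.

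The authors' deposited table gives an adjusted p below 0.05 for 87 members higher and 0 lower at the middle stage, and for 84 lower and 0 higher at the late stage. At the early stage the authors' deposited table gives 0 higher and 1 lower. The share of all genes with such a p was not counted, so these counts have no background here. By the threshold used above, 23.6% of all genes were higher and 28.1% lower at the middle stage. At the late stage 26.3% were higher and 23.1% lower. The sources used here do not say how p-values were made from 1 library a group.

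The 2 muscle-rich libraries, middle C-PC and late control, carry different treatments and stages. Between them all 82 nuclear members were within 2-fold on the CPM scale, with a median log2 ratio of 0.07 (middle C-PC over late control). The 13 mitochondrial members, counted without nuclear copies, were all higher in the middle C-PC library, with a median log2 ratio of 0.67. For mt-Co3 this order turned once reads of its near-identical copy Gm28437 were added, an alternative chosen after seeing the data. Its sum was 659 CPM for late control against 371 for middle C-PC. For mt-Co2, mt-Atp6, mt-Nd3 and mt-Nd4l the order held with their copies added. The 2 libraries with keratinocyte markers, late C-PC and middle control, stood otherwise. Their tissue content also differed, with hair follicle markers at 40074.5 CPM in late C-PC and 66.8 in the middle control. There 74 of 82 nuclear members had higher CPM in the late C-PC library, with a median log2 ratio of 0.52, and 3 of 12 mitochondrial members did, with a median of -0.23. Treatment and stage differ at once in both pairs and cannot be told apart. These pairs were set side by side on plain CPM, and the same counts over all genes were not made. The counts of members therefore have no background here.

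In untreated wounds, 9 of 82 nuclear members had higher CPM at the middle stage than at the early stage, with a median log2 ratio of -0.24. Of 12 mitochondrial members, 11 were higher, with a median of 0.31. The late control exceeded the early control in 79 of 82 nuclear members, with a median of 1.51, and in 12 of 13 mitochondrial members, with a median of 1.63. All of these are on plain CPM. Shares over all genes were not counted for these pairs either, so a shift of members is not separated here from a general one.

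Whether members differed with C-PC over the 3 stages was put to limma, with the stage as a block, on 16595 genes. Of these, 0% had an adjusted p below 0.05, as did 0 of the 95 members tested. The fit had 2 residual degrees of freedom, and the middle and late pairs ran in opposite directions. A lack of calls therefore does not show that no member differs. At an unadjusted p below 0.05 there were 155 genes and 0 members. edgeR's quasi-likelihood test called 0 genes and DESeq2 called 55, none of them a member. The median log2 difference of the members was 0.18, with 79 of 95 above 0. Without the middle pair it was -0.87, with 3 of 95 above 0, and without the late pair it was 1.18, with 91 above 0. For Sdha the log2 difference was 0.09 ± 1.08 (SE, 3 pairs; limma adjusted p = 1). For mt-Co1 it was 0.12 ± 1.39 (SE, 3 pairs; limma adjusted p = 1).

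Stages were compared with limma on the same 16595 genes with the treatment as covariate. Between middle and early, 0% of genes passed and 166 had an unadjusted p below 0.05, 0 of them members. Between late and early, 0% passed and 1064 had an unadjusted p below 0.05, 0 of them members. edgeR called 0 genes in both comparisons, and DESeq2 called 19 and 661, with 0 members in each. The members' median log2 difference was 1.04 at the middle stage and 1.22 at the late stage, against 0.03 and 0.08 for all genes. Without the middle C-PC library the first was -0.63, with 10 of 95 above 0, and without the late control the second was -0.34, with 15 of 95 above 0. Without the middle control the first was 2.57, and without the late C-PC library the second was 2.69. The smallest member p was that of mt-Co2 between middle and early, with a log2 difference of 2.61 ± 0.98 (SE, 2 libraries a stage; limma adjusted p = 0.988).

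The paralogs of subunit 6a, small proteins of cytochrome c oxidase that bind nucleotides, gave the clearest contrast. Cox6a1 had 143 CPM in the early control, 162 in the early C-PC library, 102 in the middle control, 80.2 in the middle C-PC library, 136 in the late control and 211 in the late C-PC library. Its muscle paralog Cox6a2 had 48.0, 18.7, 28.7, 626, 544 and 7.10 CPM in the same order. Cox6a1 thus ranged less than 3-fold, and its CPM was lowest where that of Cox6a2 was highest. The log2 ratio of Cox6a2 was 4.99 (4.86 to 5.13) at the middle stage and -6.78 (-7.08 to -6.55) at the late stage. That of Cox6a1 was 0.20 and 0.08. At the middle stage Cox6a1 thus stood lower with C-PC in CPM and higher on the authors' scaling, so its direction turned with the scaling.

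Per length, Cox6a2 made up 25.7% (95% exact binomial interval 24.3% to 27.3%) of the pair's transcripts in the early control and 10.6% (9.52% to 11.8%) in the early C-PC library. It made up 22.5% in the middle control and 89.0% (88.4% to 89.5%) in the middle C-PC library. At the late stage the share was 80.5% in the control and 3.37% (2.80% to 4.01%) with C-PC. The order of the 6 libraries by this share is the order of their skeletal muscle marker sums.

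Subunit 7a gave the same order at the top and bottom. Cox7a1, the muscle form, had 3.66 CPM in the early control, 1.54 in the early C-PC library, 3.78 in the middle control, 99.5 in the middle C-PC library, 74.2 in the late control and 1.41 in the late C-PC library. Cox7a2, the form of most tissues, had 58.3, 69.5, 53.9, 138, 129 and 90.8 CPM. Cox7a1 reached 55.9% of the pair per length in the middle C-PC library and 50.4% in the late control, and lay between 2.67% and 11.0% in the other 4. Unlike Cox6a1, Cox7a2 passed the threshold at both stages, with log2 ratios of 1.90 at the middle stage and -1.05 at the late stage. Cox7a2l, a related protein that takes part in joining complexes III and IV into supercomplexes, lay between 64.8 and 102 CPM in all 6 libraries.

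For subunit 8, Cox8b, the muscle form, had 11.3 CPM in the early control, 7.13 in the early C-PC library, 9.58 in the middle control, 189 in the middle C-PC library, 176 in the late control and 4.05 in the late C-PC library. Cox8a lay between 64.5 and 154 CPM. Cox8b made up 78.3% of the pair per length in the middle C-PC library, 63.3% in the late control, between 9.28% and 18.4% in both early libraries and the middle control, and 4.29% in the late C-PC library. Cox8a had a log2 ratio of 0.84 at the middle stage and -0.72 at the late stage, under 2-fold in both.

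**Figure D3:**
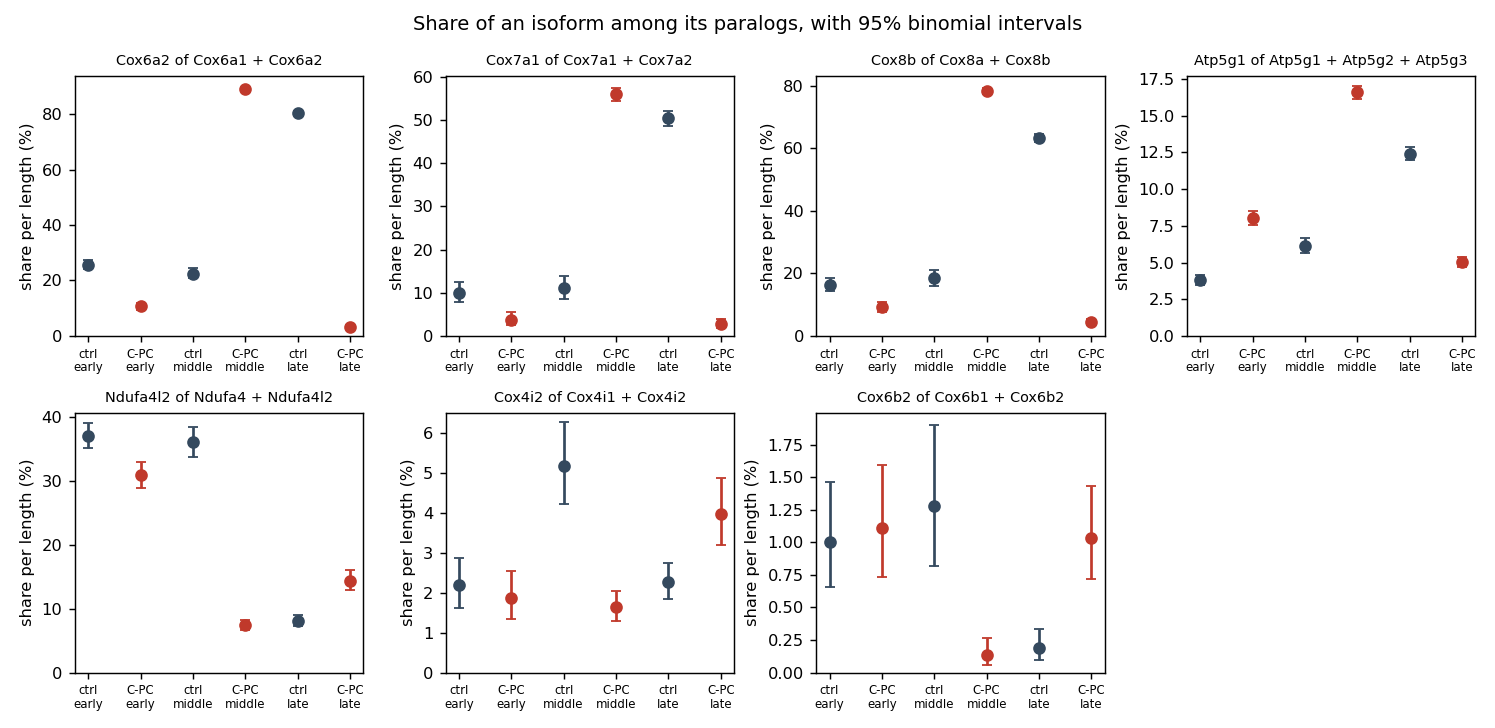
Share of an isoform among its paralogs per deposited gene length, in percent, in the 6 libraries (control dark, C-PC red), with exact 95% binomial intervals that cover counting error only. Cox6a2, Cox7a1 and Cox8b reach their highest shares in the late control and the middle C-PC library and their lowest in the late C-PC library, whereas Ndufa4l2 has its lowest shares in the first 2 of these.

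For subunit Ndufa4 the share of the paralog was lowest where muscle markers were highest. Ndufa4l2, a hypoxia-inducible relative of the complex IV subunit Ndufa4, had 44.0 CPM in the early control, 32.8 in the early C-PC library, 33.7 in the middle control, 19.4 in the middle C-PC library, 21.0 in the late control and 17.1 in the late C-PC library. Its share of the pair per length was 37.0%, 30.9%, 36.1%, 7.44%, 8.14% and 14.4% in that order. Ndufa4 itself had between 75.3 and 129 CPM in 4 libraries, 305 in the middle C-PC library and 299 in the late control. Ndufa4l2 was under 2-fold lower with C-PC at each stage, with log2 ratios of -0.40, -0.25 and -0.84, and its lowest level was in the late C-PC library. The low shares in the 2 muscle-rich libraries thus came mostly with more Ndufa4.

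Cox4i2, a form of subunit 4 known from lung and from low oxygen, stayed rare. Its share of the pair per length lay between 1.64% (1.30% to 2.04%) in the middle C-PC library and 5.17% (4.22% to 6.26%) in the middle control, and its level between 2.32 and 6.18 CPM. Cox6b2, known as the testis form of subunit 6b, lay between 0.135% and 1.28% of its pair, with 8 to 35 reads a library. Cox7b had 66.7, 67.5, 53.7, 199, 187 and 84.6 CPM in the order early control, early C-PC, middle control, middle C-PC, late control and late C-PC, and its paralog Cox7b2 was not among the genes listed.

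Among the genes for subunit c, Atp5g1 made up 3.81% per length in the early control and 8.01% in the early C-PC library. The share was 6.14% and 16.6% at the middle stage, and 12.4% and 5.03% at the late stage, control first. Of the reads as counted, without length, it held 9.06% and 17.9% at the early stage. It held 14.2% and 32.5% at the middle stage and 25.8% and 11.7% at the late stage. Atp5g1 had 30.7, 69.1, 40.3, 311, 197 and 47.6 CPM, in the order used for Cox7b, Atp5g2 between 101 and 169, and Atp5g3 between 142 and 487. Unlike Cox6a2, Cox7a1 and Cox8b, Atp5g1 was higher with C-PC at the early stage. Atp5g2 shares its whole transcript with annotated pseudogenes, so its reads are uncertain.

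The 13 mitochondrial genes fell apart by level. Seen per length, mt-Co1, the catalytic subunit of cytochrome c oxidase, had the highest RPKM in each library, between 4706 and 21738. A pseudogene on chromosome 1, Gm29216, matches 31.3% of mt-Co1 at 99.8% identity. Another on chromosome 2, Gm13340, matches the whole of mt-Co1 at 97.6%. The 5 genes without a near-identical nuclear copy (mt-Cytb of complex III and mt-Nd1, mt-Nd2, mt-Nd5 and mt-Nd6 of complex I) lay between 681 and 10954 RPKM, and mt-Nd4, which has a copy of part of its length, between 713 and 3409. The lowest of all was mt-Atp8, between 0.288 and 6.28 RPKM, which lies after mt-Co2 and overlaps the start of mt-Atp6. Only 43 of its 204 bases matched another annotated transcript, namely mt-Atp6 and the nuclear copy of mt-Atp6, Gm10925. Copies were sought among annotated transcripts only, so an unannotated copy of any of these genes would have been missed. Low as well, between 1.71 and 363 RPKM, were mt-Co2, mt-Co3, mt-Atp6, mt-Nd3 and mt-Nd4l. Each of these last 5 has an annotated nuclear pseudogene that matches at least 95% of its length at 99% identity or more. The 5 pseudogenes lie next to each other on chromosome 1 between 24612407 and 24615565 (GRCm38). Their reads have a second, nearly equal place in the genome. How reads with several places were counted is not given in the sources used here, and the part of these copies in the levels was not tested.

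The first 38 bases of mt-Nd3 and of its copy Gm28438 are shown because the transcripts differ at 1 base of the 345 aligned. It is T3C, counted from the first base of mt-Nd3, with the base of mt-Nd3 first, and capitals mark it. Both are read from GENCODE M21 transcripts on GRCm38.
mt-Nd3, chrMT:9459-9496, plus strand: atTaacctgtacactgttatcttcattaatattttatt
Gm28438, chr1:24613082-24613119, minus strand: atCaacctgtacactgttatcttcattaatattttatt

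The copies took a large share of the reads. Of the reads on mt-Nd3 and Gm28438 together, between 81.1% and 93.0% were listed under the copy. For mt-Co2 and Gm28661 the copy held between 39.3% and 52.9%, and for mt-Atp6 and Gm10925 between 42.3% and 69.1%. For mt-Co3, a core subunit of cytochrome c oxidase, the copy Gm28437 held between 23.3% and 52.3% in 5 libraries and 62.6% in the late control, where it had 6674 reads beside 3986 of mt-Co3. With gene and copy summed, an alternative chosen after seeing the data, mt-Co3 had 659 CPM in the late control and 46.1 in the late C-PC library.

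mt-Nd4l, a small membrane subunit of complex I, went its own way. It had 273 reads in the early control, 25 in the early C-PC library, 182 in the middle control, 105 in the middle C-PC library, 64 in the late control and 51 in the late C-PC library. The early log2 ratio was -3.23 (-3.98 to -2.73), whereas that of mt-Nd4, transcribed with it, was -0.14 (-0.17 to -0.11). With its copy Gm10222 added, the early libraries had 324 and 76 reads. At the middle stage mt-Nd4l had a log2 ratio of -0.36 and was the only mitochondrial gene not higher with C-PC. With the copy added, the middle libraries had 269 and 277 reads, or 17.0 and 16.1 CPM, control first. The copy held 32.3% and 62.1% of these. The lower level of mt-Nd4l alone thus came with more reads under the copy, and the part of read assignment was not tested.

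Among the genes without a near-identical copy, mt-Cytb, the cytochrome b of complex III, had 2557 CPM in the early control, 2382 in the early C-PC library, 3235 in the middle control, 12532 in the middle C-PC library, 7892 in the late control and 3468 in the late C-PC library. The log2 ratios were -0.08, 2.50 and -1.73 at the early, middle and late stage. mt-Nd1 and mt-Nd2 had ratios of 2.38 and 2.45 at the middle stage and of -2.01 and -2.12 at the late stage. mt-Nd5 and mt-Nd6, which lie next to each other on opposite strands, had smaller ratios, 1.73 and 1.66 at the middle stage and -1.09 and -1.05 at the late stage. The libraries do not mark the strand, so reads from the 2 strands cannot be separated there. mt-Atp8 had 0.0587 to 1.28 CPM, too few reads to be compared at the early stage.

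**Figure D4:**
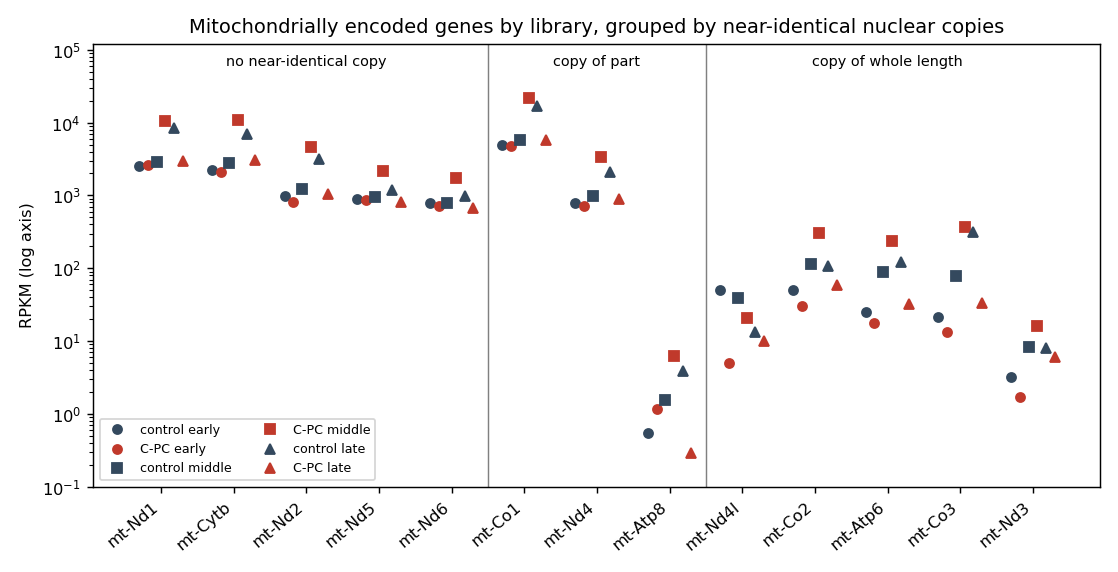
RPKM of the 13 mitochondrially encoded genes in each library on a log axis (control dark, C-PC red; circles early, squares middle, triangles late), grouped by whether an annotated transcript elsewhere in the genome matches none, part or the whole of the gene at 99% identity or more. Genes with a whole-length copy lie between 1.71 and 363 and genes with none between 681 and 10954.

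Genes around the chain were described from lists of known function, by the same threshold. The shares of all genes to set beside them are 23.6% higher and 28.1% lower at the middle stage. For the late stage they are 26.3% higher and 23.1% lower. In the tricarboxylic acid cycle, which feeds electrons to complexes I and II, all 18 genes were higher in the middle C-PC library (median log2 ratio 2.56) and all 18 lower at the late stage (-1.99). Idh3a, a subunit of NAD-dependent isocitrate dehydrogenase, had 84.4 CPM in the middle control and 628 in the middle C-PC library, and 549 and 125 at the late stage. Of 14 genes of mitochondrial fatty acid oxidation, 13 were higher at the middle stage and 10 lower at the late stage, where 3 did not pass in either direction. Cpt1a, the liver-type enzyme that admits fatty acids to mitochondria, was the 1 gene called in the opposite direction at both stages, with 147 CPM in the middle control and 20.4 with C-PC, then 23.5 and 163 at the late stage.

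Of 13 other electron carriers and related genes compared, 11 were higher and 1 lower at the middle stage, and 8 were lower and 2 higher at the late stage. Slc25a4, the ATP/ADP exchanger of heart and muscle, had 274 CPM in the middle control and 2326 with C-PC, then 2213 and 192 at the late stage. Its paralog Slc25a5 had 90.2 CPM in the late control and 602 in the late C-PC library. Cycs, the somatic cytochrome c, had 49.4 and 265 CPM at the middle stage.

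Of 15 assembly factors of complex I, 12 were higher at the middle stage, and 8 were lower and 1 higher at the late stage. Of 30 assembly factors of the other complexes, 24 were higher and then 22 lower. Mitochondrial ribosomal proteins had 19 of 30 higher at the middle stage and 7 of 30 lower at the late stage. Import components had 7 of 16 and 2 of 16, and genes of mitochondrial DNA upkeep and transcription had 8 of 16 and 2 of 16. Over all genes, 23.6% were higher at the middle stage and 23.1% lower at the late stage, so the late counts of these 3 lists were near or below the share of all genes. Tfam, which packages mitochondrial DNA, had 44.4 CPM in the late control and 42.2 with C-PC. The medians of these last 3 lists at the middle stage were 1.41, 0.95 and 0.99, each below those of the nuclear and mitochondrial members.

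Of 12 nuclear regulators of mitochondrial genes, 7 were higher at the middle stage, and 7 were lower and 1 higher at the late stage. Ppargc1a, the coactivator known for driving mitochondrial biogenesis in muscle, had 3.34 CPM in the middle control and 33.8 with C-PC, then 23.0 and 7.75 at the late stage. Perm1, a muscle regulator induced by it, had 14.7 and 136 CPM, then 124 and 19.7. Esrra, an estrogen-related receptor, had 97.7 CPM in the late control and 38.6 with C-PC. Of 11 hypoxia-inducible genes, 6 were higher and 2 lower at the middle stage, and 4 were lower and 1 higher at the late stage. Beside both lists, 23.6% of all genes were higher and 28.1% lower at the middle stage. At the late stage 23.1% of all genes were lower and 26.3% higher. Ldha, a lactate dehydrogenase subunit abundant in fast muscle, had 543 and 2840 CPM at the middle stage and 3169 and 422 at the late stage.

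**Figure D5:**
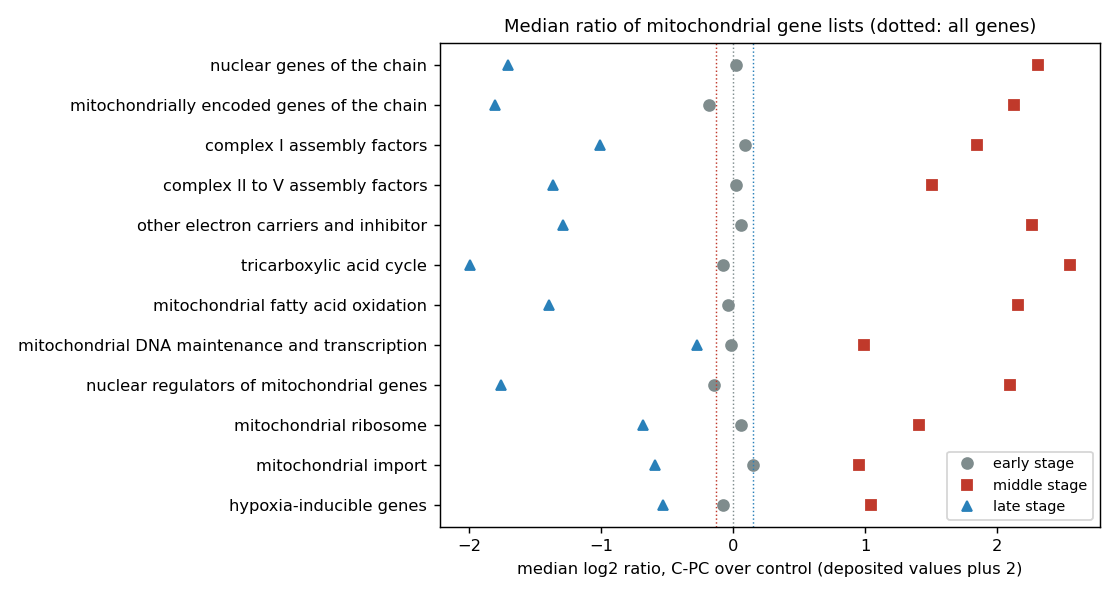
Median log2 ratio of C-PC over control (deposited values plus 2) for the nuclear and mitochondrial genes of the chain and for 10 lists of related genes, at the early (grey circles), middle (red squares) and late stage (blue triangles), with dotted lines at the median of all genes. Middle-stage medians run from 0.95 for import to 2.56 for the tricarboxylic acid cycle, and all late-stage medians lie below 0.

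At the early stage none of the 18 genes of the tricarboxylic acid cycle passed the threshold. Among the other lists, 1 of 16 genes of mitochondrial DNA upkeep was higher and 2 of 12 regulators were lower. Of all genes, 2.92% were higher and 6.85% lower at this stage, and counts this small cannot be told from those shares. The early medians of all 10 lists lay between -0.15 and 0.15.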

How the data were processed

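Total RNA was purified on columns and libraries carry no strand information, per the labels' protocols. Aligner, counting tool and annotation: not given in the sources used here. Of builds, the submitters' processing notes name only hg38, a human build, whereas gene identifiers and positions are those of mouse (GRCm38). The authors deposited 1 table per stage with a signal per gene, their reads scaled to a common size within each pair, and, per the file headers, a log2 fold change with its p-value, raw and adjusted.

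Whole reads were recovered from the signal (100% of values within 0.1 read, largest deviation 0.00751), and the authors' scaling was matched by edgeR's trimmed mean of M-values. Levels are CPM or RPKM of recovered reads, the latter by the deposited gene length. Within a stage, where each group has 1 library, no test was made: log2 ratios of deposited values plus 2 have exact 95% conditional binomial intervals for genes with at least 10 reads in 1 library. On this scale low genes are understated. Intervals cover counting error only. Over stages, limma 3.58.1 (trend, robust) was fitted on log2 values with Benjamini-Hochberg adjustment and 2 residual degrees of freedom, with edgeR 4.0.16 and DESeq2 1.42.0 on recovered reads as alternatives. The error of this fit mixes variation among samples with variation of the effect among stages. Scripts were tested on simulated data. Near-identical copies were sought among GENCODE M21 transcripts with BLAST+ 2.17.0. Named genes are the highest and lowest member of each complex per stage, all paralogs, catalytic subunits and up to 4 genes of each list by ratio, and not every gene picked is named. Members and lists were chosen with earlier results of these data known.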

Additional observations from a re-analysis of the deposited data

Results flagged for a closer look

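The difference between C-PC and control ran in opposite directions at 2 stages. The median log2 ratio of nuclear members was 2.31 at the middle stage and -1.71 at the late stage. That of mitochondrially encoded members was 2.13 and -1.80. Each value compares 1 library with 1 library, so the difference between the stages was not tested. Skeletal muscle markers ran the same way, with 12 of 12 higher at the middle stage and 12 of 12 lower at the late stage, and their part in these values was not tested.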

How the results depend on the processing

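Total counts of members apart per stage stayed within 1.5 times of the reported ones under every alternative scaling, pseudocount and read minimum tried. By complex they did not: at the late stage, scaling to total reads left 4 of 8 lower genes in complex III and 8 of 15 in complex V. With scaling to total reads, the nuclear median was 1.769 at the middle stage and -1.159 at the late stage, and the mitochondrial median -1.251 at the late stage. Leaving the mitochondrial chromosome out of the total gave 1.847, -1.207 and -1.298. The trimmed mean over all 6 libraries gave -1.801 and -1.893 at the late stage. Without a read minimum the early mitochondrial median was -0.1411. With only the genes without a near-identical copy, chosen after seeing the data, it was -0.0797, and -1.734 at the late stage. DESeq2 called 55 genes for C-PC over the stages, 19 between middle and early and 661 between late and early, 0 of them members; every other alternative, among them the fit with no replicate block and those leaving out a pair or a library, called 0. The stage was the block; the labels do not tie the libraries of a stage to 1 animal. Of the single shares, levels and ratios, 174 were counted as moved under an alternative and 18 were not. For shares and levels, moved means beyond counting error. The ratios of mitochondrial to nuclear reads were all counted as moved, with no counting interval computed. Depth limits Cox6b2, Cox8c, mt-Atp8 and mt-Nd3, which had few reads.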
